A study of Macaca mulatta with 24 samples.

Results

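RGS13 and 8 further genes of the germinal centre and lymphoid follicle (BCL6, MYBL1, MEF2B, S1PR2, CR2, FDCSP, GCSAM and LRMP) were followed in the colon of rhesus macaques after total-body irradiation (TBI). The members were taken by gene symbol, and they are 9 of the 14491 named genes on the array, with 12 of its 43603 transcript probes. RGS13 was selected on its measured values, because its signal was 20.7-fold lower than control on day 7 at 7.4 Gy, so that this contrast is a description for every member and carries no test. One colon sample from each of 24 young-adult males was hybridised to its own one-colour Agilent rhesus array, and whole gut tissue was used. The 4 controls were sham-irradiated and are labelled day 4. The irradiated animals received a single dose of 6.7 or 7.4 Gy of gamma rays from a cobalt source, with 4 animals per dose on day 4, 4 per dose on day 7 and 2 per dose on day 12. One free-text label gives another last day, and the day of the sample labels was used. The control arrays serve all 6 comparisons with control. In bulk tissue, fewer cells of a type and less RNA per cell cannot be told apart.

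Germinal centres form inside the lymphoid follicles of the gut when activated B cells divide, mutate their antibody genes and compete for help from T follicular helper cells. BCL6 sets this programme, follicular dendritic cells display antigen through complement receptors, and receptors for sphingosine and chemokines hold the B cells in place. Colon lymphoid follicles are scattered, so that one piece of colon can hold a follicle and the next none. RGS13 and LRMP are also known from tuft cells of the epithelium, and RGS13 from mast cells.

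Values are log2 signals relative to the 75th percentile of the same array, so that a value of 0 equals that percentile, and a difference of 1 is a 2-fold difference. A probe counted as measured on an array when the scanner software called it well above background, which held for 66.7 to 85.0% of probes per array. A probe passed the test when its limma p, adjusted over all probes tested, was under 0.05 and its difference at least 2-fold. Of the 12 member probes, 10 were tested. The single MYBL1 probe and the dimmer LRMP probe were above background on 0 of 24 arrays and were not tested. The epithelial keratin KRT20 and the B cell receptor subunit CD79B were above background on 24 of 24 arrays. The defining B cell surface protein MS4A1 was above background on only 3 arrays.

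RGS13, which speeds the shut-off of G protein signals from chemokine receptors, was high in control colon and low on days 4 and 7. In controls its log2 level was -1.74, -3.89, -1.61 and -0.37 in replicates 1 to 4. On day 4 it was -4.84, -4.25, -3.54 and -6.43 at 6.7 Gy and -5.03, -6.24, -5.73 and -5.12 at 7.4 Gy. All 4 arrays at 7.4 Gy lay under the lowest control, whereas one array at 6.7 Gy lay above it. RGS13 was 7.27-fold lower than control on day 4 at 6.7 Gy (log2 difference -2.86 ± 0.82 SE, adjusted p = 0.0323) and 12.4-fold lower at 7.4 Gy (-3.63 ± 0.82 SE, adjusted p = 0.00449). With normexp background correction, which adds an offset of 50 to every signal, both calls held at smaller sizes (-1.73 and -1.96). RGS13 was above background on 4 of 4 controls but on 2 of 4 arrays in each day 4 group. The 6.7-Gy call was lost without control replicate 1, 3 or 4 or without day 4 replicate 1 or 4, with adjusted p from 0.0666 to 0.1. All controls lay at one array position and all 7.4-Gy day 4 arrays at another, and with position as a block neither call held (adjusted p = 0.125 and 0.18). Both differences with control used the control arrays on which RGS13 had been selected.

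On day 7 at 6.7 Gy the log2 level of RGS13 was -4.21, -5.71, -3.56 and -6.18. These values overlapped the lowest control, and the difference of -3.01 ± 0.82 SE had an adjusted p of 0.124 (-1.65 with normexp). On day 7 at 7.4 Gy the levels were -6.99, -6.84, -3.80 and -7.45, a difference from control of -4.37 ± 0.82 SE that chose the gene. Replicate 3 stood far above the other 3 arrays of that group and was the only one above background.

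On day 12 RGS13 was -0.75 and -1.96 at 6.7 Gy, within the control range, and -3.31 and -4.17 at 7.4 Gy, on either side of the lowest control. The difference from control was 0.55 ± 1.0 SE (adjusted p = 0.979) at the lower dose and -1.84 ± 1.0 SE (adjusted p = 0.779) at the higher dose. Ordered by mean level, the groups ran from 6.7 Gy day 12 through control, 7.4 Gy day 12, 6.7 Gy day 4, 6.7 Gy day 7 and 7.4 Gy day 4 to 7.4 Gy day 7. Each group overlapped its neighbour in that order. Array slides held arrays of several groups, and within a slide RGS13 was lower than the control in every pair available on days 4 and 7, by -1.80 and -2.55 (6.7 Gy day 4), -3.42 and -5.87 (7.4 Gy day 4) and -1.82 to -5.80 (6.7 Gy day 7).

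**Figure D1:**
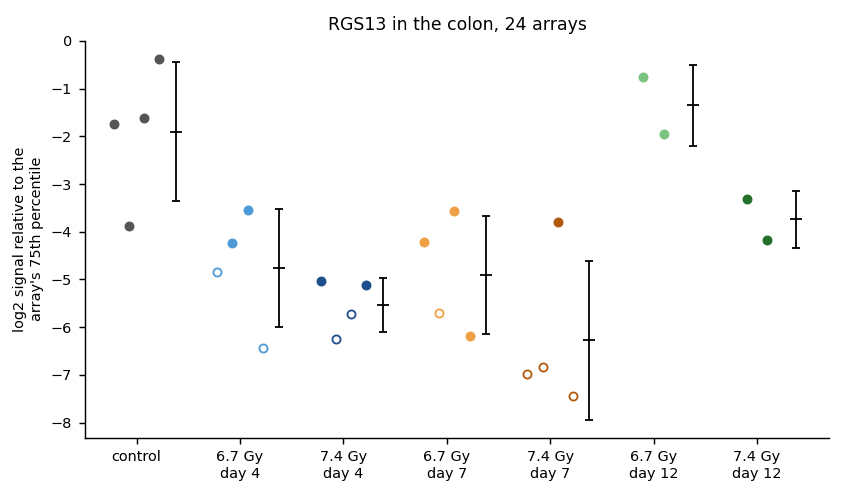
RGS13 log2 signal relative to the 75th percentile of each array (y axis) in the 7 groups (x axis). Each point is one animal, filled where the probe was well above background and open where it was not, and the bar beside the points is the mean with its SD. The controls and the 6.7 Gy day 12 animals sit high, and 3 of 4 animals on day 7 at 7.4 Gy sit at -6.84 or lower.

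LRMP, a membrane protein of the endoplasmic reticulum expressed in lymphoid cells, followed RGS13 most closely. Its log2 level was -1.03, -0.80, -0.68 and 0.03 in controls. It was -2.01, -2.02, -1.09 and -1.91 on day 4 at 6.7 Gy and -1.44, -1.91, -1.62 and -1.56 at 7.4 Gy. Every day 4 array lay under every control, and the closest pair, on the same slide, differed by -0.055. LRMP was 2.20-fold lower than control at 6.7 Gy (-1.14 ± 0.27 SE, adjusted p = 0.0145) and 2.02-fold lower at 7.4 Gy (-1.01 ± 0.27 SE, adjusted p = 0.0141), the latter just past the 2-fold limit. Without control replicate 4 neither passed, with differences of -0.92 (adjusted p = 0.0505) and -0.80 (adjusted p = 0.0569), and the 7.4-Gy difference also fell under 2-fold without day 4 replicate 2 (-0.92, adjusted p = 0.0383). It was also just under 2-fold with quantile normalization (-0.998), median scaling (-0.947), slide as a block (-0.946) or scan day as a block (-0.984). With position as a block it was larger but not past the threshold (-1.53, adjusted p = 0.0531), and with slide as a block the 6.7-Gy difference was -1.06 (adjusted p = 0.0618).

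LRMP on day 7 at 6.7 Gy was -2.23, -2.31, -2.60 and -2.57, under all controls and all day 4 arrays of that dose. It was 3.49-fold lower than control (-1.80 ± 0.27 SE, adjusted p = 0.00689). After 7.4-Gy TBI it was -2.45, -2.52, -1.83 and -3.16, a difference of -1.87 ± 0.27 SE that is given without a test. On day 12 it was -0.10 and -0.95 at 6.7 Gy, inside the control range. At 7.4 Gy it was -1.43 and -1.61, under every control, and the difference of -0.90 ± 0.34 SE had an adjusted p of 0.566.

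GCSAM, an adaptor that restrains the movement of germinal centre B cells, was -4.48, -3.61, -3.36 and -1.57 in controls, the fourth array standing highest. On day 4 it was -4.01, -4.12, -3.89 and -4.30 at 6.7 Gy and -4.58, -4.57, -4.43 and -4.65 at 7.4 Gy. Control replicate 1 lay within the 7.4-Gy range and under the 6.7-Gy range. GCSAM fell 2.47-fold on day 4 at 7.4 Gy (-1.30 ± 0.39 SE, adjusted p = 0.0241), and the 6.7-Gy difference of -0.83 ± 0.39 SE had an adjusted p of 0.186. The 7.4-Gy call was lost without control replicate 4 (-0.74, adjusted p = 0.0635) and without day 4 replicate 1 (adjusted p = 0.0541) or 4 (adjusted p = 0.0518), and with position as a block (-1.27, adjusted p = 0.286). With normexp the difference was under 2-fold (-0.87, adjusted p = 0.0212). It kept its size but not the call with the 2 groups alone (adjusted p = 0.131) and by a t-test (adjusted p = 0.214).

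On day 7 GCSAM was -3.91, -3.75, -3.65 and -4.51 at 6.7 Gy (-0.70 ± 0.39 SE against control, adjusted p = 0.6). At 7.4 Gy it was -4.68, -4.52, -4.86 and -4.73, under all 4 controls (-1.44 ± 0.39 SE, not tested). On day 12 it was -2.69 and -3.82 at 6.7 Gy and -4.10 and -3.86 at 7.4 Gy, all within the control range.

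BCL6, the repressor that defines germinal centre B cells and is also used by T follicular helper cells and other tissues, ranged from 0.59 to 1.26 in controls. On day 4 at 6.7 Gy it was 0.96, 2.48, 0.70 and 0.48, with replicate 2 far above the others, and at 7.4 Gy 1.36, 1.44, 1.33 and 0.55. On day 7 it ranged from 0.71 to 0.96 at 6.7 Gy and from 0.16 to 1.0 at 7.4 Gy, and on day 12 the 4 arrays lay between 0.72 and 1.0. Its tested differences from control ran from -0.10 ± 0.39 SE (7.4 Gy day 12) to 0.30 ± 0.32 SE (7.4 Gy day 4, adjusted p = 0.535), and each overlapped control.

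MEF2B, which switches on BCL6 in B cells, was -5.23, -5.21, -4.36 and -3.61 in controls and lay between -5.55 and -4.68 in the day 4 groups and the 6.7 Gy day 7 group. Its differences from control there were -0.47 ± 0.32 SE (6.7 Gy day 4, adjusted p = 0.378), -0.52 ± 0.32 SE (7.4 Gy day 4, adjusted p = 0.27) and -0.35 ± 0.32 SE (6.7 Gy day 7, adjusted p = 0.787). On day 12 at 6.7 Gy it was -3.44 and -4.62, the first of these the highest of all 24 arrays. MYBL1, a MYB factor of dividing germinal centre B cells, had no array above background and its values, between -8.59 and -6.33, are not compared.

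S1PR2, the sphingosine receptor that confines B cells to the germinal centre, was -4.16, -2.93, -3.84 and -3.15 in controls. Every irradiated array lay between -3.81 and -2.75, with the highest slightly above the highest control. Its tested differences from control ran from -0.06 ± 0.28 SE (7.4 Gy day 4, adjusted p = 0.911) to 0.34 ± 0.34 SE (6.7 Gy day 12, adjusted p = 0.942).

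CR2, complement receptor 2 of mature B cells and follicular dendritic cells, spread most widely among the controls. Its brightest probe was -6.7, -3.30, -0.96 and 1.07 in controls, the first of these not above background. It was -0.93, -1.97, -0.056 and -3.42 on day 4 at 6.7 Gy and -1.50, -2.84, -2.23 and -1.92 at 7.4 Gy, all inside the control range. The differences of 0.88 ± 1.22 SE (adjusted p = 0.698) and 0.35 ± 1.22 SE (adjusted p = 0.871) were smaller than their errors.

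On day 7 CR2 was -3.41, -3.50, -0.97 and -4.85 at 6.7 Gy (-0.71 ± 1.22 SE, adjusted p = 0.903) and -4.42, -5.30, -5.62 and -6.97 at 7.4 Gy (-3.11 ± 1.22 SE, not tested). On day 12 it was -0.078 and -2.17 at 6.7 Gy but -6.68 and -3.94 at 7.4 Gy (-2.84 ± 1.49 SE against control, adjusted p = 0.76). The second CR2 probe was above background on 7 arrays, 3 of them controls and 3 from 6.7 Gy day 4. It was above background on 0 of 4 arrays on day 4 at 7.4 Gy, and was at least 3.50-fold lower there than in controls (adjusted p = 0.0873), whereas the brightest probe gave no such difference. The bound sets each array of the low group at its lowest signal that was well above background, or at the probe's own signal where that was higher. The high group enters with its plain mean, including arrays not above background. The third probe was above background on 2 arrays, control replicate 4 and 7.4 Gy day 12 replicate 2.

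FDCSP, a small peptide secreted by follicular dendritic cells, was -2.24, -2.58, -1.99 and -0.26 in controls. On day 4 it was 0.0052, -1.81, -0.41 and -2.62 at 6.7 Gy and 0.41, -2.24, -1.72 and -1.93 at 7.4 Gy, so that 3 day 4 arrays were as high as control replicate 4 or near it and the others were not. On day 7 the 8 arrays lay between -2.67 and -1.68, and on day 12 the 4 arrays lay between -2.64 and -1.60. Its tested differences from control ran from -0.49 ± 0.72 SE (7.4 Gy day 12, adjusted p = 0.951) to 0.56 ± 0.58 SE (6.7 Gy day 4, adjusted p = 0.591).

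**Figure D2:**
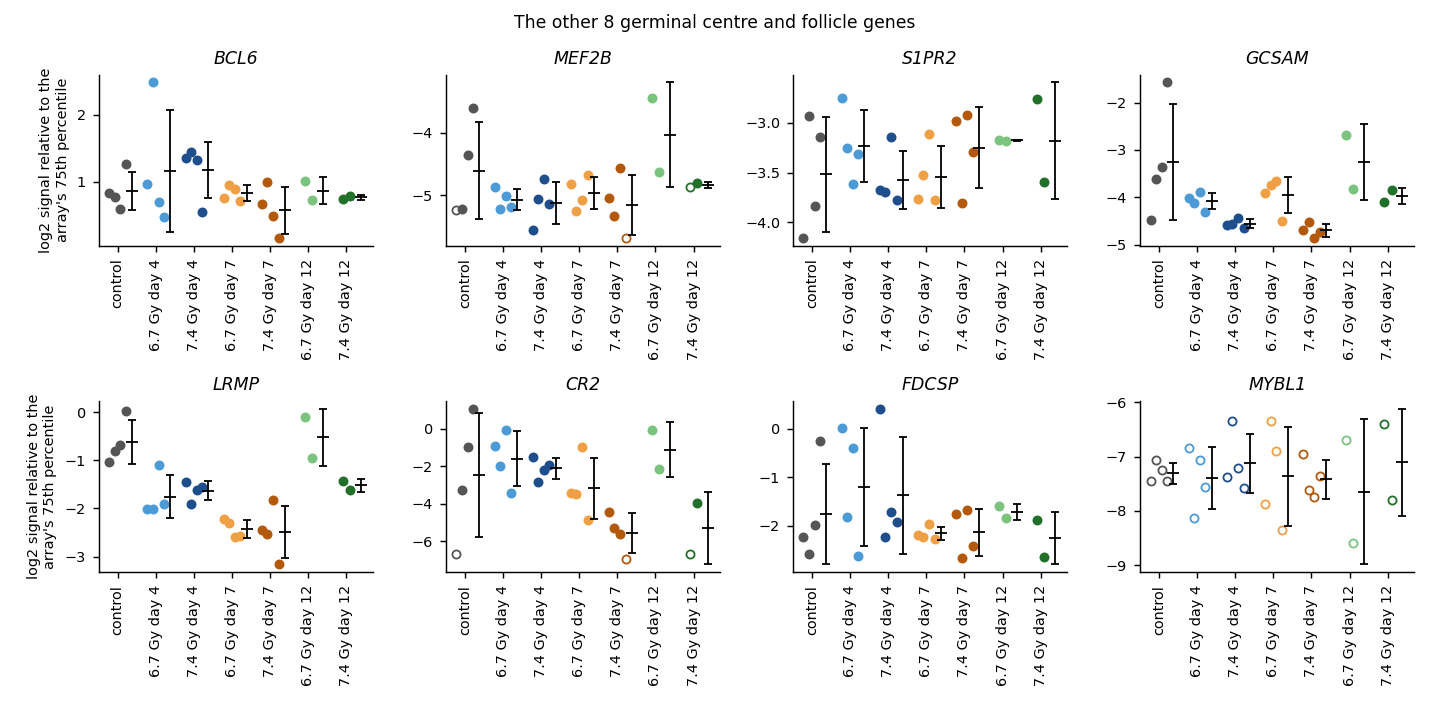
The other 8 members in the same units as RGS13, one panel per gene with its own y axis. Points are animals (filled where well above background, open where not) and bars are means with SD. LRMP shows the lowest levels on day 7 at both doses, CR2 spreads over 7.77 log2 units in controls, and MYBL1 is open in every group.

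Set against all probes, 2 of the 10 member probes passed on day 4 at 6.7 Gy, where 3.64% of 38234 probes passed, and 3 passed at 7.4 Gy, where 7.04% passed. These were RGS13 and LRMP at 6.7 Gy and RGS13, LRMP and GCSAM at 7.4 Gy, and all were lower. RGS13 was selected with the same control arrays, so that its place in both counts is not independent of that choice. Apart from it, only LRMP passed at 6.7 Gy and only LRMP and GCSAM at 7.4 Gy. The other members were also chosen with earlier results of these data known, so that their counts are not independent of the data either. On day 7 at 6.7 Gy 1 member probe passed (LRMP), with 0.316% of all probes. For the contrast that chose RGS13, 2 member probes (RGS13 and LRMP) lay past the thresholds, with 0.387% of all probes, and nothing is read from that count. On day 12 no member probe passed against control in the limma fit at 6.7 Gy (0.0183% of 38215 probes) or 7.4 Gy (0.0262% of 38233 probes), and at an unadjusted p under 0.05 with a 2-fold difference there were 0 and 1 member probes, with 714 and 749 of all probes. The 8 tested genes had a median difference from control of -0.09 and -0.29 on day 4 at 6.7 and 7.4 Gy, against -0.07 and -0.08 over all probes. All 8 genes were lower in mean on day 7 at 6.7 Gy, with a median of -0.55 against -0.03 over all probes. Of these, BCL6 (-0.04) and S1PR2 (-0.03) lay close to the median of all probes. On day 4 at 6.7 and 7.4 Gy 4 and 5 of the 8 genes were lower, and on day 12 2 and 7.

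**Figure D3:**
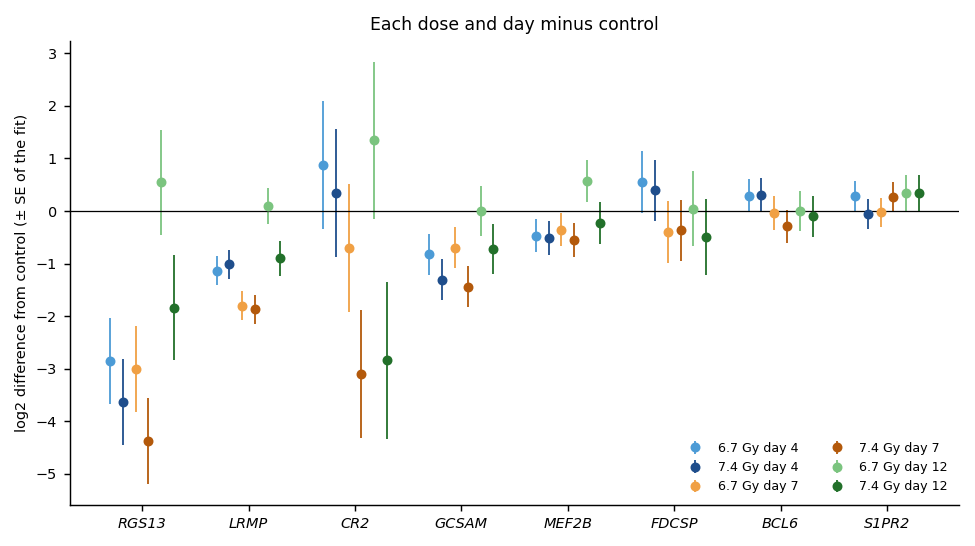
Log2 difference from control (y axis) of the 8 tested genes (x axis) in the 6 irradiated groups, with the SE of the fit. RGS13 shows the largest falls on days 4 and 7, LRMP and GCSAM smaller ones with small errors, CR2 the widest errors, and BCL6 and S1PR2 stay near 0. The 7.4 Gy day 7 values include the one that chose RGS13.

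Between days, the 6.7-Gy animals share no array with the contrast that chose RGS13. This holds for the differences only, since each SE and p used the spread over all 24 arrays. Between days 4 and 7, 0 of 10 member probes passed, with 1.67% of all probes, and 1 had an unadjusted p under 0.05 with a 2-fold difference, as did 1523 of all probes. LRMP was 1.59-fold lower on day 7 than on day 4 with no overlap of arrays (-0.67 ± 0.27 SE, adjusted p = 0.172), and RGS13 differed by -0.15 ± 0.82 SE (adjusted p = 0.946). From day 4 to day 12, 2 of 10 member probes passed, with 3.53% of all probes. RGS13 rose 10.6-fold (3.41 ± 1.0 SE, adjusted p = 0.0475) and LRMP 2.35-fold (1.23 ± 0.34 SE, adjusted p = 0.0353), and in both genes the 2 day 12 arrays lay above all 4 day 4 arrays. MEF2B was 2.06-fold higher with no overlap (1.04 ± 0.39 SE, adjusted p = 0.113). Only 2 animals stood on day 12, and leaving out either ended both calls, with adjusted p of 0.315 and 0.123 for RGS13 and 0.364 and 0.0543 for LRMP. RGS13 also lost the call without other arrays, including some of groups outside the comparison, with differences from 2.81 to 4.02, and with normexp the rise was 1.95 (adjusted p = 0.0198). Fitted on the 2 groups alone, RGS13 kept its difference of 3.41 but not the call (adjusted p = 0.126). LRMP also lost its call without day 4 replicate 1, 2 or 4 (adjusted p = 0.0706, 0.0758 and 0.0532). Its call was lost too with slide as a block (1.15, adjusted p = 0.158) and with the 2 groups alone (1.23, adjusted p = 0.171). Replicate 1 of the day 12 animals had 712 outlier spots, where the other 23 arrays had 24 to 153, and the part of this in the rise was not tested.

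Between days 7 and 12 at 6.7 Gy, 0 member probes passed, with 0.0131% of all probes, and 2 had an unadjusted p under 0.05 with a 2-fold difference, as did 750 of 38215 probes. These were LRMP (3.74-fold higher, 1.90 ± 0.34 SE, adjusted p = 0.0637) and RGS13 (11.8-fold higher, 3.56 ± 1.0 SE, adjusted p = 0.406), and their day 12 arrays lay above all day 7 arrays. At 7.4 Gy from day 4 to day 12, 1 member probe passed, with 5.18% of all probes. This was the third CR2 probe (2.56 ± 0.77 SE, adjusted p = 0.0406), measured on 1 of the 2 day 12 arrays and on 0 day 4 arrays. The size of its rise therefore rests mostly on unmeasured signals. The brightest CR2 probe went the other way (-3.19 ± 1.49 SE, adjusted p = 0.189). RGS13 was 3.46-fold higher without overlap (1.79 ± 1.0 SE, adjusted p = 0.277). The 7.4-Gy contrasts that use the day 7 arrays are given without a test. From day 4 to day 7 and from day 7 to day 12, 0 member probes were past the thresholds, with 5.49% and 0.00785% of all probes, and RGS13 differed by -0.74 ± 0.82 SE and 2.53 ± 1.0 SE.

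Between doses no probe of any gene passed in the limma fit on day 4, 7 or 12 (0% of all probes on each day), and 1, 0 and 1 member probes had an unadjusted p under 0.05 with a 2-fold difference, as did 439, 172 and 438 of all probes. RGS13 was lower at 7.4 than at 6.7 Gy by a log2 difference of -0.77 ± 0.82 SE on day 4 (adjusted p = 0.937), -1.36 ± 0.82 SE on day 7 (not tested) and -2.39 ± 1.16 SE on day 12 (adjusted p = 1). On day 12 both 7.4-Gy arrays lay under both 6.7-Gy arrays for 6 of 8 member genes (RGS13, LRMP, CR2, GCSAM, MEF2B and FDCSP), which held for 17.7% of all probes. The doses shared no slide on day 12, so that dose and slide cannot be told apart there. The 6 genes were read on the same arrays and are not separate observations, and replicate 1 at 6.7 Gy was the array with 712 outlier spots. For CR2 and MEF2B, replicate 1 at 7.4 Gy was not above background. The fitted differences were -4.19 ± 1.72 SE for CR2 (adjusted p = 1) and, for LRMP, -0.996 ± 0.39 SE (adjusted p = 1).

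Single arrays stood high or low for several members at once. Control replicate 4 had the highest value of all 24 arrays for RGS13, CR2, GCSAM and LRMP, the second highest for MEF2B and the third for FDCSP. Replicate 1 on day 12 at 6.7 Gy ranked 1 of 24 for MEF2B, 2 for RGS13, GCSAM and LRMP and 3 for CR2. At the other end, replicate 4 on day 7 at 7.4 Gy was lowest for BCL6 and LRMP, and its RGS13, MEF2B and CR2 signals were not above background. With both high arrays left out, 0 member probes passed on day 4 at 6.7 Gy and 1 at 7.4 Gy, and RGS13 differed from control at 6.7 Gy by -2.35 (adjusted p = 0.109).

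After group means were removed, the 28 pairs of the 8 tested genes all had a positive Pearson r over the 24 arrays, with a median of 0.37. CR2 and GCSAM were closest (r = 0.83, Spearman rho = 0.73, and r = 0.65 without the 2 arrays farthest from the median of CR2). MEF2B and LRMP followed (r = 0.68, rho = 0.56), then RGS13 and LRMP (r = 0.66, rho = 0.57) and MEF2B and GCSAM (r = 0.66, rho = 0.38). Without the 2 farthest arrays these were 0.56, 0.60 and 0.33, in the same order. BCL6 and S1PR2 stood apart, with r of 0.19 and 0.09 to RGS13. Points of these correlations share the array and its scaling, and they are a description.

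**Figure D4:**
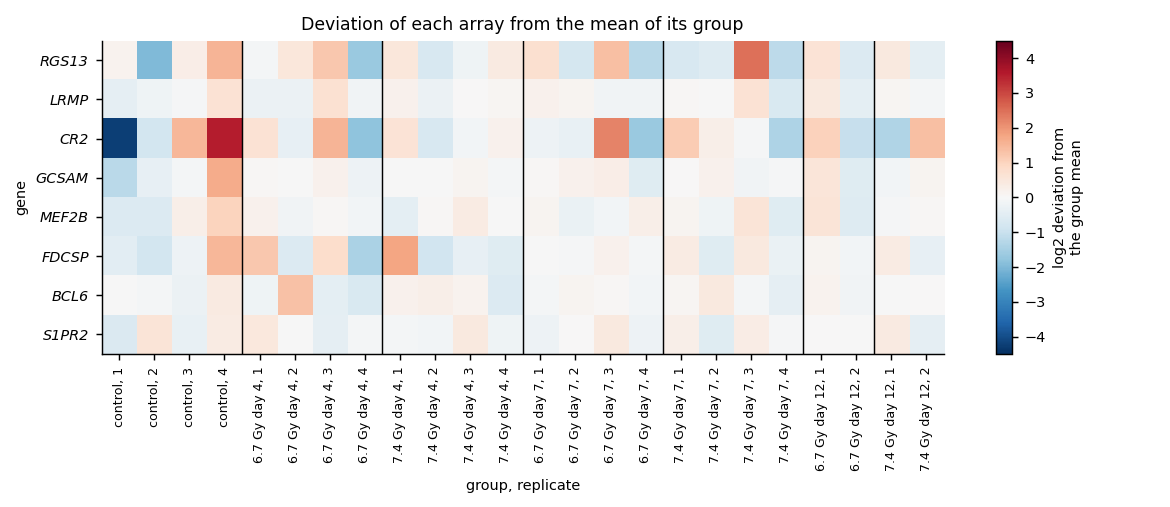
Deviation of each of the 24 arrays (x axis, grouped by dose and day, with the replicate number) from the mean of its group, in log2 units by colour, for the 8 tested genes (y axis). Red is above and blue below the group mean. Control replicate 4 is red for 8 of 8 genes, and control replicate 1 is deep blue for CR2.

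Further genes of the follicle and of other colon cells were described with gene lists. In whole tissue, the cells that gave these signals were not identified. Of 12 tested further genes of germinal centre B cells, 1 passed as lower on day 4 at 6.7 Gy and 2 at 7.4 Gy, with the elongation factor ELL3 at both doses. At 6.7 Gy ELL3 fell (2.97-fold lower, adjusted p = 0.00312). At 7.4 Gy it was 3.67-fold lower (adjusted p = 0.000257). ELL3 rose again from day 4 to day 7 (2.65-fold, adjusted p = 0.0136, at 6.7 Gy). No gene of that list passed against control later. The list's median difference was -0.21 and -0.16 on day 4 and -0.53 on day 7 at 6.7 Gy.

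Of 8 genes of follicular dendritic cells and follicle stroma, 1 passed as higher on day 4 at each dose. It was the adhesion molecule VCAM1, 2.64-fold higher at 6.7 Gy (adjusted p = 0.00192) and 2.53-fold higher at 7.4 Gy (adjusted p = 0.000787), and the median of the list was 0.64 and 0.76. Of 8 lymphoid tissue chemokines and lymphotoxins, 2 passed as higher on day 4 at 6.7 Gy and 3 at 7.4 Gy, CCL20 and CCL19 at both doses. CCL20, which draws B cells and dendritic cells to the follicle-associated epithelium, was 9.16-fold higher at 6.7 Gy (adjusted p = 0.00461) and 11.5-fold higher at 7.4 Gy (adjusted p = 0.000831). CCL19, a chemokine of T cell zones, was 4.41-fold higher (adjusted p = 0.0287) and 5.69-fold higher (adjusted p = 0.00638) at the same doses.

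Of 11 mature B cell genes, 0 passed on day 4 at 6.7 Gy and 1 at 7.4 Gy, the Fc receptor-like FCRLA (2.63-fold lower, adjusted p = 0.0246). Their summed log2 signal ranged from 1.38 to 2.63 in controls, from 0.86 to 1.38 and from 0.56 to 1.13 on day 4 at 6.7 and 7.4 Gy, and from 0.45 to 0.85 and from 0.36 to 0.75 on day 7. On day 12 it ranged from 0.93 to 1.77 and from 1.11 to 1.69. Of 9 T follicular helper genes, 8 plasma cell genes, 6 T cell genes and 7 proliferation genes, 0 passed against control in any group in the limma fit. At an unadjusted p under 0.05 with a 2-fold difference there were 2, 1, 4 and 0 on day 7 at 6.7 Gy. By the same measure there were 6 of the 11 mature B cell genes and 882 of 38234 probes. On day 7 at 6.7 Gy the medians of the T follicular helper, plasma cell, T cell and proliferation lists were -0.96, -0.71, -1.24 and 0.47. The median of the mature B cell list was -1.04, and that of all probes -0.03. The part of B cell number in the falls of RGS13, LRMP and GCSAM was not tested.

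Of 11 tested tuft cell genes, 2 passed as lower on day 4 at each dose and 2 passed as higher from day 4 to day 12 at 6.7 Gy. On day 7 against control, 0 lay past the thresholds at 6.7 Gy and 2 were lower at 7.4 Gy (0.387% of all probes). From day 4 to day 7 at 7.4 Gy, 2 were past them as lower (5.49% of all probes). Both 7.4-Gy counts use the day 7 arrays on which RGS13 was selected and are given without a test. On day 12 against control there were 0 at each dose. SH2D7, an adaptor of tuft cells, was above background in 3 of 4 controls and on 0 arrays of day 4, at least 3.55-fold lower at 6.7 Gy (adjusted p = 0.0353) and at least 4.10-fold lower at 7.4 Gy (adjusted p = 0.0369). The kinase BMX was 2.25-fold lower on day 4 at 6.7 Gy (adjusted p = 0.0184), and ALOX5, the lipoxygenase that starts leukotriene synthesis, was 2.16-fold lower at 7.4 Gy (adjusted p = 0.0353). From day 4 to day 12 at 6.7 Gy, SH2D7 was at least 8.81-fold higher (adjusted p = 0.0169) and BMX 3.24-fold higher (adjusted p = 0.012). A mean of log2 levels gives full weight to dim genes, and in this list IL17RB and SH2D7 were above background on only 7 and 8 arrays. The mean log2 level over the tuft cell list was lower on all 8 day 4 arrays (-2.92 to -2.30) than on every control (-2.15 to -1.81). Its summed log2 signal, which follows the brightest genes, overlapped control on day 4, at 2.92 to 3.10 in controls, 2.68 to 3.14 and 3.09 to 3.45 on day 4, 2.57 to 2.75 and 2.36 to 2.84 on day 7, and 2.80 to 2.91 on day 12. Defining tuft cell genes differed in level, with the channel TRPM5 above background on 24 arrays and the factor POU2F3 on 17. The brightest genes of the sum were PTGS1 (mean log2 level 1.84), TRPM5 (0.35) and PLCG2 (0.28). POU2F3 (-4.86) and SH2D7 (-5.50) add little to it, so that an r to this sum says little about them. Within groups RGS13 had r = 0.58 (rho = 0.50) to the tuft cell sum, 0.41 (rho = 0.38) to the mature B cell sum and 0.37 (rho = 0.25) to the mast cell sum over 24 arrays. It had r = 0.45 (rho = 0.40) to the follicular dendritic cell sum, 0.40 (rho = 0.29) to the lymphoid chemokine sum and 0.12 (rho = 0.035) to the sum of the further germinal centre genes. The order changed without the 2 arrays farthest from the median of RGS13. There r was 0.52 to the follicular dendritic cell sum, 0.51 to the lymphoid chemokine sum and 0.44 to the tuft cell sum. It was 0.35 to the mature B cell sum, 0.31 to the mast cell sum and 0.06 to the further germinal centre genes.

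Of 8 mast cell genes, 1 passed as lower on day 4 at 6.7 Gy, the IgE receptor chain FCER1A (3.12-fold lower, adjusted p = 0.0245), and 0 at 7.4 Gy. The summed log2 signal of that list was 1.91 to 2.22 in controls, 0.93 to 2.22 and 1.66 to 2.41 on day 4, and 1.67 to 1.86 and 0.997 to 1.97 on day 7. Of 7 colon epithelium genes, 4 passed as lower on day 4 at each dose and 0 on day 7 or 12. Like that of the tuft cell list, their mean log2 level was lower on every day 4 array (2.98 to 3.98) than on every control (4.43 to 4.56). Their summed log2 signal was 9.15 to 9.49 in controls, 8.01 to 8.58 and 7.42 to 8.30 on day 4, and 9.03 to 9.37 over the 8 arrays of day 7, when LRMP was lowest. The part of tuft cells, mast cells and epithelial loss in the RGS13 and LRMP values was not tested.

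The named genes most like RGS13 were found by Pearson r over the 24 arrays among 12237 genes well above background on at least 12 arrays, whose median r was 0.03 and 99th percentile 0.63. The 8 closest were LRMP (r = 0.84, rho = 0.76), ALOX5 (0.80), the collagen-processing protease BMP1 (0.79), the ferritin cargo receptor NCOA4 (0.77, over 23 arrays), the small heat shock protein HSPB1 (0.77), the relaxin-family receptor RXFP4 (0.76), the calcium channel ORAI1 (0.76) and RIMS4 (0.76). LRMP was thus the only other member among them. After group means were removed, the 8 closest were the vitamin B12 carrier TCN2 (r = 0.77), NCOA4 (0.76), MLF2 (0.76, over 17 arrays with a value), CSNK2A1 (0.73, over 18 arrays), NIN (0.73), BMP1 (0.72), PACS2 (0.72) and ZBTB44 (0.72). LRMP ranked 20 of the 12237 on that measure, with r = 0.66.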

How the data were processed

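Total RNA from 24 colon samples was labelled with Cy3 and hybridised to Agilent rhesus arrays. The authors deposited scanner files made with Feature Extraction 11.0.1.1, which hold background-corrected signal intensity per spot, and, per the file headers and values, a table of log2 values scaled to the 75th percentile and centred on each probe's median. The array layout names build rheMac2, and no coordinates are given. From the processed signal intensity, log2 values were taken relative to the 75th percentile of transcript spots on each array (558 to 971 before scaling). Outlier spots were left out, spots of a probe were averaged, and 38234 probes well above background on at least 2 of 24 arrays were tested with limma 3.58.1 in R 4.3.3, with 1 mean per group over all 24 arrays and Benjamini-Hochberg adjustment over all probes. RGS13 and CR2 were named through RefSeq gene numbers. Each gene is represented by its brightest probe over the 24 arrays. Genes like RGS13 were the 8 with the highest r, and from other lists at most the 3 passing genes with the largest change were named. Other list genes were named only for their signal level. Members and lists were chosen with earlier results of these data known. The fit was tested on simulated data. Precision is limited by the number of arrays, with 4 animals per group on days 4 and 7 and 2 on day 12. Alternatives were other scalings, background corrections, filters, blocks and tests, and leaving out each array. No probe sequences were used here. Some genes of the lists are not reported here.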

Additional observations from a re-analysis of the deposited data

Results flagged for a closer look

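In groups of 4, an array was singled out where its gap to the nearest array, divided by the range of the group, was above Dixon's critical value for 4 samples. Of 40 groups examined for the 8 tested genes, 4 held such an array, and chance alone gives about 1 in 20. RGS13 in replicate 3 on day 7 at 7.4 Gy was high (-3.80, next array -6.84, gap over range 0.833), but these are the values on which the gene was selected, and the other 3 arrays were not above background, so that the gap rests on unmeasured signals. LRMP in replicate 3 on day 4 at 6.7 Gy was high (-1.09, next -1.91, 0.89), and that animal also had the highest CR2 and RGS13 of its group. BCL6 in replicate 4 on day 4 at 7.4 Gy was low (0.55, next 1.33, 0.872). S1PR2 in replicate 3 of the same group was high (-3.15, next -3.68, 0.85).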

How the results depend on the processing

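The counts of member probes that passed against control on day 12 and between doses stayed at 0 under every alternative run. Where a call was lost or moved, the cause was not tested. For 6.7 Gy day 4 against control (2 member probes), the slide block and the array position block left 1, and the comparison of these groups alone, the methods' t-test and leaving out the 2 high arrays (control replicate 4 and 6.7 Gy day 12 replicate 1, chosen after seeing the data) left 0. For 7.4 Gy day 4 (3 probes) the position block left 0, and the t-test and the 2 high arrays left out left 1. On day 7 at 6.7 Gy (1 probe) the t-test gave 0 and array weights 2. Between days 4 and 7 at 6.7 Gy (0 probes), array weights and the 2 high arrays left out gave 1. Between days 4 and 12 at 6.7 Gy (2 probes), no filter and the scan day block gave 1, and the slide block, the groups alone, the t-test and the 2 high arrays left out gave 0. Between days 7 and 12 at 6.7 Gy (0 probes), quantile normalization, median scaling, the stricter filter, slide as a random block, trended robust variances and array weights gave 1. Between days 4 and 12 at 7.4 Gy (1 probe), normexp gave 2, and quantile normalization, the stricter filter, the slide block and the t-test gave 0.

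RGS13 on day 4 at 6.7 Gy was -2.64 (adjusted p = 0.125) with the position block, -2.86 with the groups alone (0.0918) and by the t-test (0.165), and -2.35 (0.109) without the 2 high arrays. On day 4 at 7.4 Gy it lost its call with the position block alone (-3.18, adjusted p = 0.18). With normexp it was -1.73 and -1.96 on day 4 at 6.7 and 7.4 Gy, -1.65 and -1.91 on day 7, and 1.95 between days 4 and 12 at 6.7 Gy, and the difference between days 4 and 7 at 6.7 Gy turned to 0.0765. Between days 4 and 12 at 6.7 Gy it was 3.41 with no filter (0.0566), with the groups alone (0.126) and by the t-test (0.221), 2.84 with the slide block (0.113), 3.28 with the scan day block (0.0731) and 2.81 without the 2 high arrays (0.305), and it lost its call in 23 of 40 alternatives.

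Leaving out each array in turn gave 0 to 2 member probes on day 4 at 6.7 Gy, 1 to 4 on day 4 at 7.4 Gy, 0 to 2 between days 4 and 12 at 6.7 Gy, and 0 to 1 both between days 7 and 12 at 6.7 Gy and between days 4 and 12 at 7.4 Gy. RGS13 then ranged from -3.52 to -2.31 (6.7 Gy day 4), 2.81 to 4.02 (6.7 Gy, day 12 against day 4), -0.112 to 1.15 (6.7 Gy day 12 against control, turned without control replicate 2, and to -0.0549 without day 12 replicate 1) and -0.706 to 0.272 (6.7 Gy, day 7 against day 4, turned to 0.0235 and 0.258 without day 4 replicate 2 or 3 and to 0.116 and 0.272 without day 7 replicate 2 or 4).

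With the replicate number as a block, 0 member probes passed between days 4 and 12 at 7.4 Gy, and no other count moved. The numbers did not pair the animals, since over 40 same-numbered pairs the correlation of deviations ran from -0.228 to 0.236, with 7 over 0.1. All controls lay at array position 1, and the position block could not be fitted for comparisons of controls or day 4 with days 7 and 12. Signal near background limits RGS13, MEF2B and CR2, and 2 animals per dose limit day 12.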
